A study of Mus musculus with 4 samples.

Results

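The genes described are 9 neural basic helix-loop-helix (bHLH) transcription factor genes grouped under the rhombic lip. This is the edge of the embryonic hindbrain roof from which cerebellar granule neurons come. Within the group, Neurog1, Neurog2 and Neurod6 are known mainly from other neurons, as described below. The 9 genes were chosen by name, with earlier results of these data known. Each was read by the probe set that the platform annotation gives to that gene alone, 9 of 19938 genes in all. Levels are log2 values as deposited, so a difference of 1 is a 2-fold change. The arrays measured 3 mouse medulloblastomas and 1 cerebellum, with 1 array each. The PtchLacZ/+ tumour came from a mouse aged 5 months with a lacZ allele of Ptch1, the Hedgehog receptor gene. The SmoM2 tumours came from Math1-Cre;SmoM2 mice aged 2 and 1 months, in which Cre made in the Math1 (Atoh1) lineage switches on SmoM2, a mutant Smoothened that signals without the Hedgehog ligand. The wild-type cerebellum was whole and came from a mouse aged 2 months. All mice had a mixed C57BL/6 and C3H background, and tumours arose spontaneously. The labels do not say from how many animals each sample came. The p-values of tumours against cerebellum speak only of the spread between the tumour arrays, which differ in genotype or age.

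Proneural bHLH factors bind the E-box, a short DNA element, as pairs with the widely made E proteins, and they drive progenitors toward a neuronal fate. In the mouse cerebellum Olig3 and Atoh1 act in rhombic lip progenitors, Atoh1 stays on in the dividing granule progenitors of the external granule layer, and Neurod1 is made as these cells leave the cycle and differentiate. Id proteins oppose these factors by tying up E proteins, and Hes and Hey proteins repress their genes.

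The 4 arrays had close medians over named genes (6.73 to 6.82). The table holds no detection calls. The lower quartile of named genes (5.09 to 5.17 by array) was therefore taken as a floor. Expression under it may be background only, so that differences measured from there may be too small. In bulk tissue fewer cells of a type and less RNA per cell cannot be told apart. Marker genes matched the labelled tissues. Gabra6, a receptor subunit gene of mature granule neurons, was at 4.64 in the PtchLacZ/+ tumour, 7.40 and 7.97 in the 2-month and 1-month SmoM2 tumours and 12.24 in the cerebellum. The proliferation gene Mki67 was at 11.15 in the PtchLacZ/+ tumour, 10.20 and 11.01 in the 2-month and 1-month SmoM2 tumours and 5.38 in the cerebellum.

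In tumours against cerebellum, the question was how the bHLH levels of the tumours differ from those of a cerebellum aged 2 months. No sample of granule progenitors was measured, so whether the tumours keep a progenitor programme cannot be read here. Only the 2-month SmoM2 tumour has the age of the cerebellum, so age is mixed into this comparison. Olig3, Atoh1, Nhlh1 and Neurod6 rose, Neurod2 fell, and Nhlh2, Neurod1, Neurog1 and Neurog2 did not pass the test. Thus 5 of 9 genes passed, against 16.0% of all genes tested. Of these, 4 of 9 were called higher, against a background of 6.70%, and 1 of 9 was called lower, against 9.30%. The median difference of the 9 genes was 1.35, and that of all genes was 0.04. As the 9 genes were chosen with earlier results of these data known, these shares do not test the set. With a tumour left out, 7 of the 9 passed without the 2-month SmoM2 tumour (30.1% of all genes), 4 without the 1-month SmoM2 tumour (11.5% of all genes) and 4 without the PtchLacZ/+ tumour (7.85% of all genes). All 3 tumours lay above the cerebellum for 6 of the 9 genes (38.1% of all genes) and below it for 2 (32.0% of all genes).

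**Figure D1:**
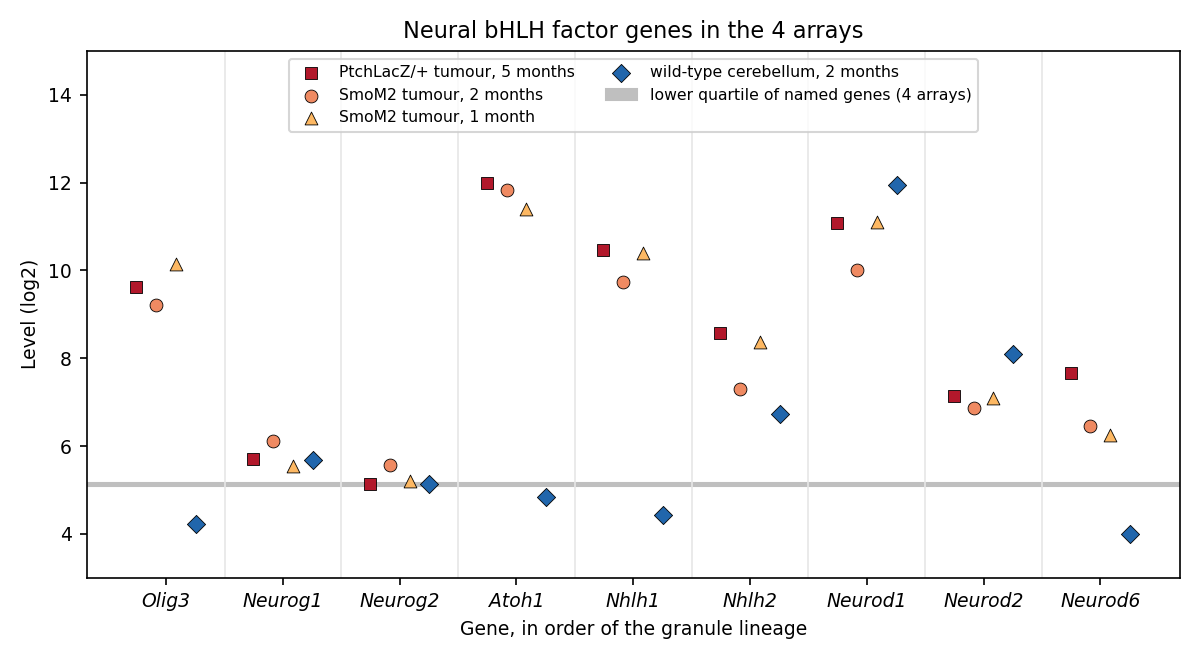
Log2 level of each of the 9 bHLH genes (x axis) in the PtchLacZ/+ tumour, the 2-month and 1-month SmoM2 tumours and the wild-type cerebellum. Each point is 1 array, and the range of the arrays' lower quartiles is a grey band. Genes stand in a chosen lineage order, in which Neurog1, Neurog2 and Neurod6 have places although they are known mainly from other neurons. Olig3, Atoh1, Nhlh1 and Neurod6 lie under the band in the cerebellum and above it in every tumour, whereas Neurod1 and Neurod2 are highest in the cerebellum.

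Olig3, which specifies rhombic lip progenitors upstream of Atoh1, was at 9.61 in the PtchLacZ/+ tumour and at 9.21 and 10.14 in the 2-month and 1-month SmoM2 tumours, against 4.22 in the cerebellum. All tumours were far above the cerebellum, where the gene was not shown to be above background. The difference was 5.44 ± 0.38 (95% interval 4.46 to 6.41, adjusted p = 0.004), or 43.3-fold. As the cerebellum was under the floor, this estimate may be too small. The tumours spread over 0.93 around a mean of 9.65 ± 0.47 (SD, n = 3).

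Atoh1, the factor without which granule neurons are not made, was at 11.98 in the PtchLacZ/+ tumour and at 11.84 and 11.39 in the 2-month and 1-month SmoM2 tumours, against 4.85 in the cerebellum. The tumours differed among themselves by at most 0.59, and their mean was 11.74 ± 0.31 (SD, n = 3). The difference was 6.88 ± 0.28 (95% interval 6.17 to 7.60, adjusted p = 0.00295), or 118-fold. This estimate may be too small, as the cerebellum was under the floor. Whether the probe set also reads RNA from the Math1-Cre transgene is not stated in the labels. The PtchLacZ/+ tumour, whose label names no such transgene, had the highest level of the 3. The part of transgene RNA in the SmoM2 values was not tested.

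Neurog1 and Neurog2 are neurogenins, proneural factors that in the mouse cerebellum are made mainly in the ventricular zone, the source of inhibitory neurons. Neurog1 was at 5.71 in the PtchLacZ/+ tumour and at 6.12 and 5.54 in the 2-month and 1-month SmoM2 tumours, against 5.69 in the cerebellum. Its tumours lay on either side of the cerebellum (difference 0.10 ± 0.27, 95% interval -0.61 to 0.80, adjusted p = 0.875), and the difference turned to -0.07 (adjusted p = 0.804) when the 2-month SmoM2 tumour was left out. Neurog2 was at 5.14 in the PtchLacZ/+ tumour and at 5.58 and 5.20 in the 2-month and 1-month SmoM2 tumours, against 5.13 in the cerebellum. These levels are close to the lower quartile of each array, and under it in the PtchLacZ/+ tumour (difference 0.17 ± 0.24, 95% interval -0.44 to 0.79, adjusted p = 0.719).

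Nhlh1 and Nhlh2 encode related factors made in young neurons that have recently left the cycle. Nhlh1 was at 10.47 in the PtchLacZ/+ tumour and at 9.73 and 10.40 in the 2-month and 1-month SmoM2 tumours, against 4.44 in the cerebellum, a level not shown to be above background. Nhlh1 rose by 5.75 ± 0.34 (95% interval 4.88 to 6.63, adjusted p = 0.00335), or 53.9-fold, an estimate that the floor may make too small. Nhlh2 was at 8.58 in the PtchLacZ/+ tumour and at 7.31 and 8.37 in the 2-month and 1-month SmoM2 tumours, against 6.74 in the cerebellum. All tumours were above the cerebellum, but the 2-month SmoM2 tumour by only 0.57, against 1.84 in the PtchLacZ/+ tumour and 1.63 in the 1-month SmoM2 tumour. The difference was 1.35 ± 0.52 and did not pass (95% interval -0.000783 to 2.7, adjusted p = 0.169). Without the 2-month SmoM2 tumour it was 1.74 and passed. The difference did not pass without the 1-month SmoM2 tumour (1.2) or without the PtchLacZ/+ tumour (1.1).

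Neurod1, which drives granule neuron differentiation and survival, was at 11.07 in the PtchLacZ/+ tumour and at 10 and 11.10 in the 2-month and 1-month SmoM2 tumours, against 11.95 in the cerebellum. It was thus well above the lower quartile in every array and lower in every tumour, by 0.89, 1.96 and 0.85 in the same order. The difference of -1.23 ± 0.49 did not pass (95% interval -2.49 to 0.0247, adjusted p = 0.175). Without the 2-month SmoM2 tumour, the lowest of the 3, it was smaller, at -0.87, and passed. The difference did not pass without the 1-month SmoM2 tumour (-1.42) or without the PtchLacZ/+ tumour (-1.4). Neurod2, a later factor of maturing neurons, was at 7.13 in the PtchLacZ/+ tumour and at 6.87 and 7.09 in the 2-month and 1-month SmoM2 tumours, against 8.09 in the cerebellum. The tumours spread over 0.25 only, and Neurod2 fell by 1.06 ± 0.19 (95% interval -1.55 to -0.57, adjusted p = 0.0251), that is 2.09-fold. The call ended when the 1-month SmoM2 tumour (adjusted p = 0.0617) or the PtchLacZ/+ tumour (0.0852) was left out, while the difference stayed at -1.09 and -1.11.

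Neurod6, known from pyramidal neurons of the mouse forebrain, was at 7.67 in the PtchLacZ/+ tumour and at 6.46 and 6.26 in the 2-month and 1-month SmoM2 tumours, against 4.0 in the cerebellum. Every tumour was above the cerebellum, where the gene was not shown to be above background, and the PtchLacZ/+ tumour was the highest. Neurod6 rose by 2.80 ± 0.58 (95% interval 1.30 to 4.30, adjusted p = 0.0364), or 6.97-fold, an estimate that the floor may make too small. Of 5 other forebrain genes listed, 3 were measured and none passed, where 16.0% of all genes did. Emx1 differed by 0.14 ± 0.17 (adjusted p = 0.674), Emx2 by 0.16 ± 0.20 (adjusted p = 0.673) and Fezf2 by 0.11 ± 0.19 (adjusted p = 0.778). Emx2 was under the lower quartile in every array.

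To show the DNA next to these genes, the 250 bases before the annotated start are given for the 4 genes that rose and for Neurod2, which fell (RefSeq, GRCm38.p6, 5′ to 3′ on the strand of the gene). Capitals mark E-boxes, written CANNTG, where N is any base, which reads as CANNTG on either strand. The windows are chr6:64728875-64729124 on the plus strand for Atoh1, chr10:19356289-19356538 on the plus strand for Olig3, chr1:172057597-172057846 on the minus strand for Nhlh1, chr6:55681264-55681513 on the minus strand for Neurod6 and chr11:98329646-98329895 on the minus strand for Neurod2.
Atoh1: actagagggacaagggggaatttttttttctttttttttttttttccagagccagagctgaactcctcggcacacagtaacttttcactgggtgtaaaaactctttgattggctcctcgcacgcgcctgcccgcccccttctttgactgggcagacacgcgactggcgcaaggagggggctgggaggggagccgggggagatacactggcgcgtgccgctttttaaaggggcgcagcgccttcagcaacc
Olig3: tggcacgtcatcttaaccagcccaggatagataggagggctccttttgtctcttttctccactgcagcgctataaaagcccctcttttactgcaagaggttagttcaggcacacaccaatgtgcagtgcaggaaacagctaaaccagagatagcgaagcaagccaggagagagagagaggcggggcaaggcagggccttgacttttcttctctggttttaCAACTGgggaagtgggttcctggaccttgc
Nhlh1: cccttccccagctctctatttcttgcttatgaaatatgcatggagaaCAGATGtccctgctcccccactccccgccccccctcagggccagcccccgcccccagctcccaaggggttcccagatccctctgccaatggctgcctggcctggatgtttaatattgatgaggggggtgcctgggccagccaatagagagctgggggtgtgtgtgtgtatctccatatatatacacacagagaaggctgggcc
Neurod6: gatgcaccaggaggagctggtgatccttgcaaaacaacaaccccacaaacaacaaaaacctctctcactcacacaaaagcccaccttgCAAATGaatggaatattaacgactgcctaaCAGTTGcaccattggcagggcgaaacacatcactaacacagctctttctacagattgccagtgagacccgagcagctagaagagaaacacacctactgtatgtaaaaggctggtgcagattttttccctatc
Neurod2: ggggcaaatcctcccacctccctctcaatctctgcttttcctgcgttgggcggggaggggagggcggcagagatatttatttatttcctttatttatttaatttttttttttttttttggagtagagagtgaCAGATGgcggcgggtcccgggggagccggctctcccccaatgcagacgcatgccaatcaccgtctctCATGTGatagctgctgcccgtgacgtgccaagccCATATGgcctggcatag

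The windows of 6 of the 9 genes held at least 1 E-box, and 66.2% of all 32851 promoter windows in the table did. The window of Atoh1 held none, and neither did those of Neurog1 and Neurog2. Olig3 had a CAACTG whose first base lies at -30 from the start. Nhlh1 had a CAGATG at -203. Neurod6 had a CAAATG at -162 and a CAGTTG at -132, and Neurod2 had a CAGATG at -118, a CATGTG at -51 and a CATATG at -17. CAGATG, or CATCTG on the other strand, was present in 3 of the 9 windows (Nhlh1, Nhlh2 and Neurod2), against 14.4% of all windows, and CAGCTG in 0 of 9, against 13.0%. A match is a description of these letters only. Genes that rose and genes that did not were found both with and without an E-box.

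The partners and opponents of the bHLH factors were then read in the same fit. Of 3 E protein genes, 2 rose, against 6.70% of all genes called higher. Tcf3 was at 9.79 in the PtchLacZ/+ tumour and at 10.11 and 9.58 in the 2-month and 1-month SmoM2 tumours, against 7.86 in the cerebellum, and rose by 1.96 ± 0.26 (adjusted p = 0.0111). Tcf12 rose by 1.07 ± 0.20 (adjusted p = 0.0259), a call lost when the 1-month SmoM2 tumour (adjusted p = 0.0714) or the PtchLacZ/+ tumour (0.104) was left out. Tcf4 differed by 1.06 ± 0.47 (adjusted p = 0.22) and passed without the 2-month SmoM2 tumour (1.41, adjusted p = 0.00238).

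Of 4 Id genes, 2 fell and none rose, against 9.30% of all genes called lower and 6.70% called higher. Id4 was at 7.81 in the PtchLacZ/+ tumour and at 7.93 and 8.15 in the 2-month and 1-month SmoM2 tumours, against 10.75 in the cerebellum, and fell by 2.79 ± 0.21 (adjusted p = 0.00416). Id2 fell by 0.83 ± 0.18 (adjusted p = 0.0419), which did not pass when the 1-month SmoM2 tumour (adjusted p = 0.115) or the PtchLacZ/+ tumour (0.125) was left out. Id1 differed by 0.46 ± 0.20 (adjusted p = 0.206) and Id3 by 0.29 ± 0.38 (adjusted p = 0.705). Id2 and Id4 are also made by mature neurons and astrocytes. Among 5 markers of astrocytes, Bergmann glia included, 4 fell and none passed as higher. Gfap, which did not pass, was above the cerebellum by 0.55 in the PtchLacZ/+ tumour and by 1.73 and 1.23 in the 2-month and 1-month SmoM2 tumours. The mean level of the 5 markers was 8.84 in the PtchLacZ/+ tumour, 9.71 and 9.64 in the 2-month and 1-month SmoM2 tumours and 10.80 in the cerebellum. The number of these markers that fell was 3 when the 1-month SmoM2 tumour was left out and 2 when the PtchLacZ/+ tumour was. The part of such cells in the Id values was not tested.

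Of 8 Hes and Hey genes, 1 rose and 1 fell, against 6.70% of all genes called higher and 9.30% called lower. Hey1, a Notch target in many tissues, was at 10.72 in the PtchLacZ/+ tumour and at 10.48 and 10.16 in the 2-month and 1-month SmoM2 tumours, against 8.72 in the cerebellum, and rose by 1.74 ± 0.26 (adjusted p = 0.016). Hes3 was at 5.52 in the PtchLacZ/+ tumour and at 5.82 in each SmoM2 tumour, against 8.31 in the cerebellum, and fell by 2.60 ± 0.21 (adjusted p = 0.00464). Hes6, which favours neuronal differentiation by opposing Hes1, differed by 1.16 ± 0.42 (adjusted p = 0.145), Hes5 by 0.68 ± 0.22 (adjusted p = 0.108) and Hes7 by 0.63 ± 0.19 (adjusted p = 0.101). These 3 passed without the 2-month SmoM2 tumour (adjusted p = 0.0212, 0.041 and 0.0466 in that order).

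**Figure D2:**
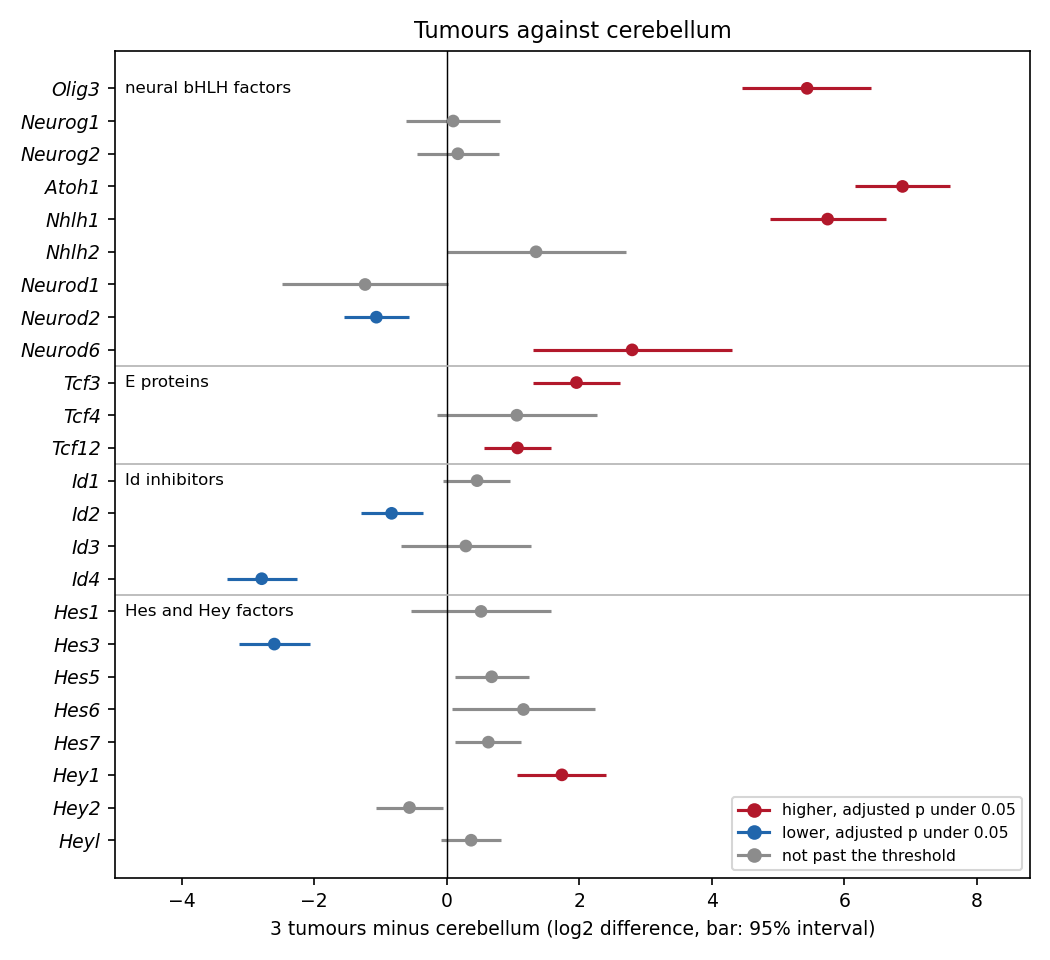
Difference between the mean of the 3 tumours and the cerebellum (x axis, log2) for the 9 bHLH genes, the E protein, Id and Hes and Hey genes, as points with the 95% interval of the limma fit. Atoh1 at 6.88, Nhlh1 at 5.75 and Olig3 at 5.44 lie to the right, while Id4 at -2.79, Hes3 at -2.60, Neurod2 at -1.06 and Id2 at -0.83 passed as lower.

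Against 6.70% of all genes called higher and 9.30% called lower, 1 of 10 measured neural bHLH genes of other lineages rose and none fell. It was Olig1, an oligodendrocyte lineage factor (1.49 ± 0.19, adjusted p = 0.011). Olig2 of the same lineage differed by 2.00 ± 0.53 and missed the threshold (adjusted p = 0.0687), passing without the 2-month SmoM2 tumour (adjusted p = 0.00597) or the PtchLacZ/+ tumour (adjusted p = 0.0459). Neurod4 was at 5.71 in the PtchLacZ/+ tumour and at 7.59 and 6.94 in the 2-month and 1-month SmoM2 tumours, against 3.74 in the cerebellum. Every tumour was above the cerebellum, where the gene was not shown to be above background, but the difference of 3.01 ± 0.72 missed the threshold (adjusted p = 0.0527). Neurod4 passed when the 2-month SmoM2 tumour (2.58, adjusted p = 0.0126) or the PtchLacZ/+ tumour (3.52, 0.0148) was left out, after quantile normalization (adjusted p = 0.0456) and with a trended prior variance (adjusted p = 0.0319). Atoh7 differed by -0.15 ± 0.22 (adjusted p = 0.732). Of 5 measured oligodendrocyte lineage markers, 1 rose and 2 fell (median -1.89). Pdgfra, a receptor gene of oligodendrocyte precursors, rose by 3.38 ± 0.27 (adjusted p = 0.00453), while the myelin gene Mag fell by 3.28 ± 0.68 (adjusted p = 0.0359) and the myelin gene Mobp fell by 2.61 ± 0.48 (adjusted p = 0.0271). The part of such cells in the Olig1 and Olig2 values was not tested.

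Markers of the stages on either side were set beside the bHLH genes. In this fit 6.70% of all genes were called higher and 9.30% lower. Of 8 granule progenitor genes, 5 rose and none fell (median 1.97), with Ccnd2 (cyclin D2) up by 5.35 ± 0.36 (adjusted p = 0.00372) and Mycn by 4.66 ± 0.22 (adjusted p = 0.00295). Of 7 genes of differentiating granule neurons, 2 rose and 1 fell (median 0.31). The neuronal tubulin gene Tubb3 rose by 1.17 ± 0.19 (adjusted p = 0.0192), a call lost when the 1-month SmoM2 tumour (adjusted p = 0.0552) or the PtchLacZ/+ tumour (0.0825) was left out. Dcx, a microtubule protein gene of migrating neurons, rose by 3.94 ± 0.59 (adjusted p = 0.0159), and Rbfox3, which encodes the neuronal marker NeuN, fell by 1.45 ± 0.27 (adjusted p = 0.0273, and 0.074 without the PtchLacZ/+ tumour). Of 10 genes of mature granule neurons, 7 fell and none rose (median -4.36). Each of the 3 that did not pass passed when any tumour was left out.

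Of 5 measured markers of other rhombic lip neurons, 1 rose and 1 fell, against 6.70% of all genes called higher and 9.30% called lower. Lhx2 rose by 2.40 ± 0.21 (adjusted p = 0.00514), and Eomes, a factor of unipolar brush cells, fell by 1.43 ± 0.18 (adjusted p = 0.0101). The share of all genes called in either direction was 16.0%, and 30.1% without the 2-month SmoM2 tumour. Of 9 markers of cerebellar GABAergic neurons, 4 fell and none rose (median -3.09). With the 2-month SmoM2 tumour left out, 7 fell and 1 rose, namely Lhx1 (1.20, adjusted p = 0.00607).

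The PtchLacZ/+ tumour was set against the SmoM2 tumours to ask whether the bHLH levels differ between the models. Genotype and age cannot be told apart here. The spread in this fit comes only from the SmoM2 tumours, which differ in age. None of the 9 genes passed, nor did any gene in the limma fit (0.00% of 19938), although 1.40% of genes had an unadjusted p under 0.05. The PtchLacZ/+ tumour lay above both SmoM2 tumours for 5 of the 9 genes (23.8% of all genes) and below both for 1 (31.1% of all genes). Neurod6 had the only unadjusted p under 0.05 of the 9. Its difference was 1.31 ± 0.27 (95% interval 0.62 to 2.01, limma adjusted p = 0.9998). For Atoh1 the difference was 0.36 ± 0.31 (95% interval -0.45 to 1.17), for Olig3 -0.06 ± 0.45 (95% interval -1.23 to 1.11) and for Nhlh1 0.41 ± 0.37 (95% interval -0.55 to 1.37). For Nhlh2 it was 0.74 ± 0.49 (95% interval -0.55 to 2.02) and for Neurod1 0.52 ± 0.51 (95% interval -0.81 to 1.85). The intervals of these 5 genes span changes in either direction. Marker levels of other cell types also ran apart between these arrays, although no marker passed this comparison. The 10 genes of mature granule neurons had a mean level of 6.66 in the PtchLacZ/+ tumour and of 7.79 and 8.16 in the 2-month and 1-month SmoM2 tumours (median difference -1.16, with Gabra6 at -3.05 and Vsnl1 at -2.21). The median difference was -0.60 for the 9 GABAergic neuron markers, with Calb1 at -3.56, and -0.93 for the 5 oligodendrocyte and for the 5 astrocyte markers. Gabra6 and Calb1 were under the lower quartile in the PtchLacZ/+ tumour. Other lists went the other way, with a median of 0.43 for the 4 microglia markers and 0.41 for the 8 granule progenitor genes. Within the lists that were lower, Cbln1 was at 0.17, Lhx1 at 0.23 and Pdgfra at 0.27. The part of all these cell types in the bHLH values was not tested.

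The SmoM2 tumours at 2 months and at 1 month, with 1 array each, allow no test. At 2 months Olig3, Nhlh1, Nhlh2, Neurod1 and Neurod2 were lower and Atoh1, Neurog1, Neurog2 and Neurod6 higher than at 1 month, that is 5 of 9 lower (40.1% of all genes) and 4 of 9 higher (59.8% of all genes). Neurod1 differed by -1.11 (10 at 2 months, 11.10 at 1 month), Nhlh2 by -1.06 (7.31 at 2 months, 8.37 at 1 month), Olig3 by -0.93 (9.21 at 2 months, 10.14 at 1 month) and Nhlh1 by -0.67 (9.73 at 2 months, 10.40 at 1 month). Atoh1 differed by 0.45, Neurog1 by 0.58, Neurog2 by 0.38, Neurod6 by 0.21 and Neurod2 by -0.22. Thus 2 of 9 genes were lower by at least 1, as were 2.05% of all genes, and 0 of 9 were higher by at least 1, as were 1.66% of all genes. The median difference of all genes was 0.08, and 0.196 after quantile normalization, which left the direction of each of the 9 differences as it was.

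Markers of differentiating granule neurons were also lower at 2 months. All 7 were, 4 of them by at least 1 (median -1.13, range -1.45 to -0.24), including Dcx by 1.44, Sema6a by 1.21 and Nrcam by 1.13. Of the 8 granule progenitor genes 7 were lower at 2 months (median -0.42), as were 7 of the 10 genes of mature granule neurons (median -0.49). Of all genes, 40.1% were lower at 2 months, and 2.05% were lower by at least 1. All 8 Hes and Hey genes (median 0.21) and 9 of the 10 neural bHLH genes of other lineages (median 0.17) were higher at 2 months. Of all genes, 59.8% were higher (median 0.08). After quantile normalization these medians were 0.31, 0.35 and 0.196 in that order. Tcf4 differed by -1.06, Hes6 by 1.03 and Id3 by 0.86. The 4 measured cell cycle genes went both ways, with Mki67 at -0.81, Top2a at -0.05, Pcna at 0.23 and Ccna2 at 0.24. The 2-month SmoM2 tumour was the lowest of the 3 tumours for 5 of the 9 bHLH genes, as for 30.8% of all genes.

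**Figure D3:**
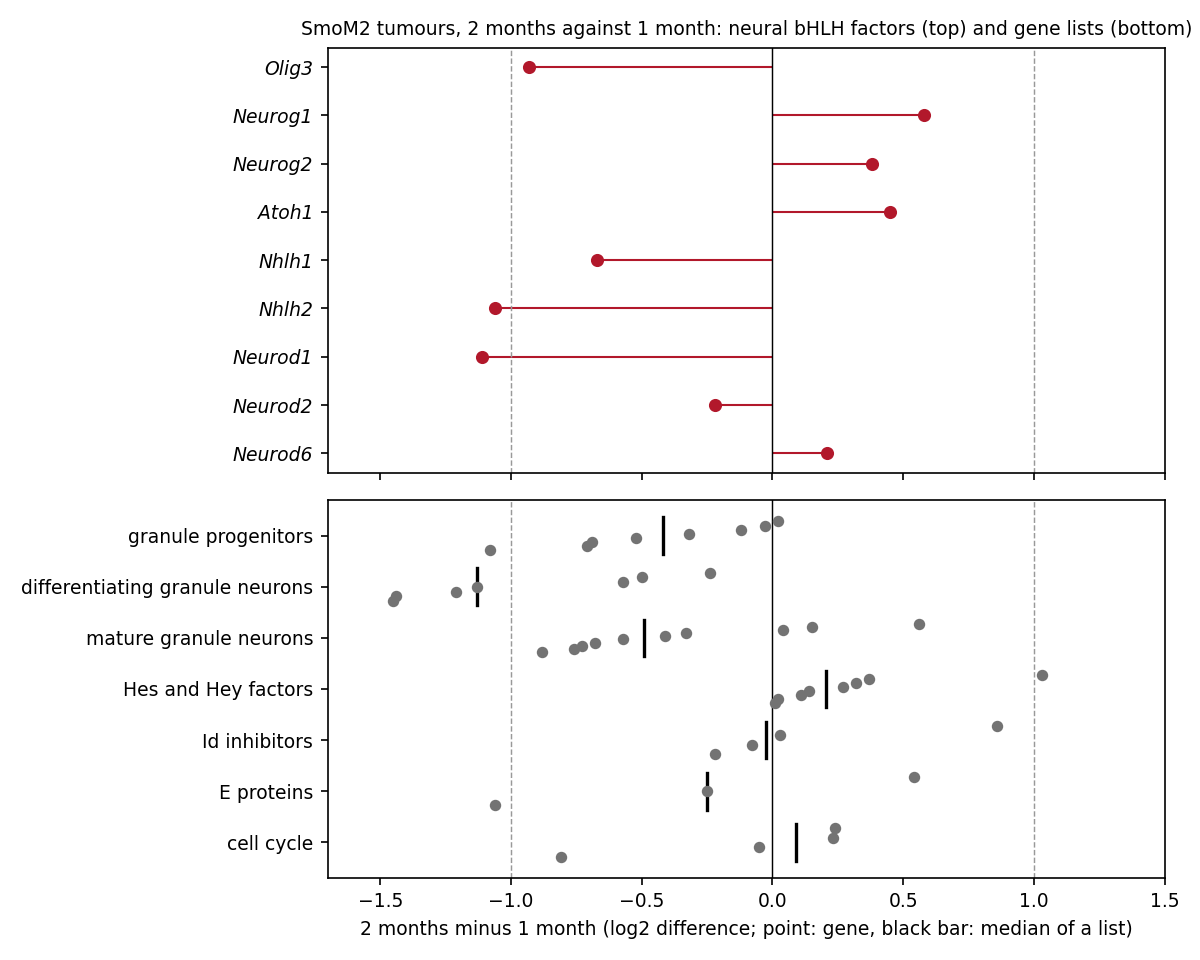
Difference of the SmoM2 tumour at 2 months minus that at 1 month (x axis, log2) for the 9 bHLH genes (top, red) and for genes of 7 lists (bottom, grey points, with the median of each list as a black bar). Neurod1 at -1.11 and Nhlh2 at -1.06 lie past the dashed line at -1, and all 7 genes of differentiating granule neurons lie left of 0.

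For each bHLH gene with a range of at least 1 over the 4 arrays and a highest level above the median of its array, the most similar profiles were found by the Euclidean distance between levels centred on the mean of the 4 arrays. With 4 arrays, 3 of them tumours, such a likeness is a description of these arrays only. Nearest to Atoh1 were Ccna2 (cyclin A2, distance 0.55), Top2a (topoisomerase II alpha, 1.03) and Ect2 (a cytokinesis gene, 1.06), all genes of dividing cells. Like Atoh1, Ccna2 (4.61) and Ect2 (4.45) were under the lower quartile in the cerebellum. Nearest to Olig3 were Draxin, an axon guidance gene (0.19), Sox11, a factor of young neurons (0.40), and Sfrp1, a secreted Wnt antagonist gene (0.47). Nearest to Nhlh1 were Sfrp1 (0.21), Mki67 (0.33) and Cdk6 (0.35). Draxin was at 10.89 in the PtchLacZ/+ tumour and at 10.30 and 11.23 in the 2-month and 1-month SmoM2 tumours, against 5.51 in the cerebellum, and like Olig3 was lowest among the tumours at 2 months.

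Nearest to Nhlh2 were Mir17hg (0.16), the host gene of a miRNA cluster, the guidance receptor gene Robo2 (0.19) and Prr36 (0.21). Mir17hg was under the lower quartile in the cerebellum (4.5). Robo2 was at 10.12 in the PtchLacZ/+ tumour and at 8.84 and 9.95 in the 2-month and 1-month SmoM2 tumours, against 8.08 in the cerebellum. Nearest to Neurod1 were Adamts18 (0.07), the presynaptic scaffold gene Ppfia2 (0.09) and the potassium channel gene Kcnj13 (0.12). All were highest in the cerebellum and lowest in the 2-month SmoM2 tumour, where Kcnj13 was under the lower quartile (4.97). Nearest to Neurod2 were Ate1 (0.03), Shisa4 (0.05) and Tmem164 (0.06). Nearest to Neurod6 were the secreted Wnt modulator gene Sfrp2 (0.33), Gpr153 (0.43) and the cerebellin gene Cbln4 (0.43), and Sfrp2 was at 10.40 in the PtchLacZ/+ tumour, 9.28 and 9.23 in the 2-month and 1-month SmoM2 tumours and 6.51 in the cerebellum. Small distances are easier to reach for a gene of small range such as Neurod2, so distances are not compared between the bHLH genes.

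**Figure D4:**
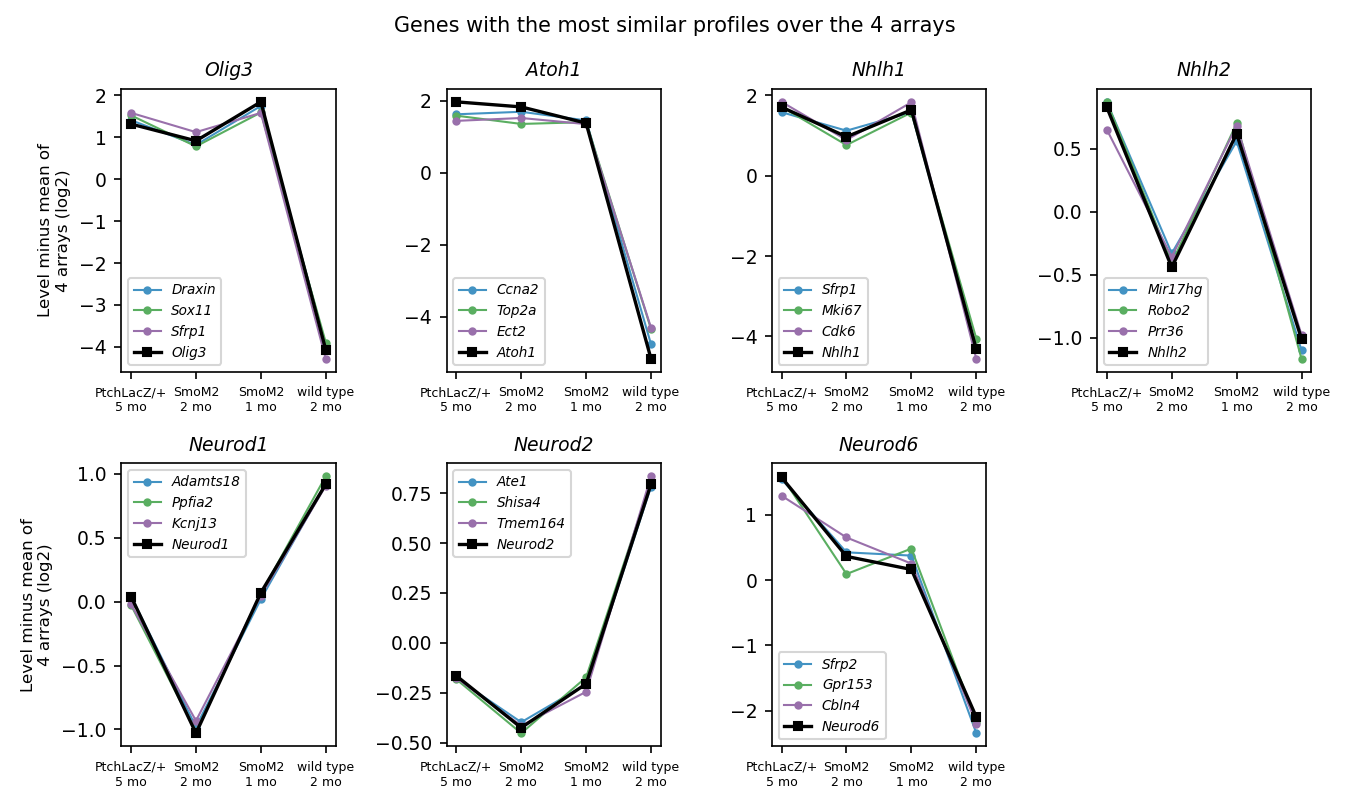
Level minus the mean of the 4 arrays (y axis, log2, own scale in each panel) in the PtchLacZ/+ tumour, the 2-month and 1-month SmoM2 tumours and the wild-type cerebellum, for 7 bHLH genes (black) and the 3 genes nearest to each (colours). Olig3, Nhlh1, Nhlh2, Neurod1 and Neurod2 are lowest among the tumours in the 2-month SmoM2 tumour, and Atoh1, which spans 0.59 among the tumours, is lowest in the 1-month SmoM2 tumour.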

How the data were processed

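Expression was measured in 4 samples, each on 1 Affymetrix Mouse Gene 1.0 ST array. The authors deposited log2 values for 35557 probe sets, which came from Affymetrix Expression Console according to the submitters' processing notes. The sources used here name no version, summarisation or normalization, and the log2 scale was inferred from the values (2.71 to 14.86). Groups, genotypes and ages came from the labels.

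By the platform annotation 21789 probe sets had 1 gene symbol, 1621 several and 12147 none. Of the single-symbol probe sets, 21698 matched a RefSeq gene (GRCm38.p6) by Entrez identifier, which updated the symbol. Of several probe sets for a gene, that of highest mean level (4 arrays) was kept, leaving 19938 genes. Each of the 9 bHLH genes had 1 probe set.

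No filter or further normalization was applied. Tests were made with limma 3.58.1 in R 4.3.3 (lmFit, eBayes) over all genes, adjusted by Benjamini-Hochberg and called at an adjusted p under 0.05. Residual degrees of freedom were 2 for tumour against cerebellum, or 1 with a tumour left out, and 1 for PtchLacZ/+ against SmoM2. An array alone in its group is taken to vary as the others do. Intervals are 95% intervals of these fits, and errors after ± are standard errors of the fit where SD is not written. The number of arrays limits the precision. The fit was run on simulated data in which the cerebellum had the spread of the tumours. The assumption on an array alone in its group was thus not checked, and no outcome is used here. Alternatives were quantile normalization, the mean of the probe sets of a gene, genes above the median level, a trended and a robust prior variance, and leaving out each tumour.

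E-boxes were searched in the 250 bases before each annotated gene start. The rule for named genes took all 9 bHLH genes, any gene of the E protein, Id and Hes and Hey lists, the 2 largest differences in each direction of the other lists, and the 3 genes with the most similar profile to each bHLH gene whose range was at least 1 log2 unit and whose highest level was above the median of its array. Olig1, Tubb3, Pcna and Fezf2 lie outside this rule, and at least Olig1 and Tubb3 were named after their values were seen. The bHLH genes and the lists were chosen with earlier results of these data known.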

Additional observations from a re-analysis of the deposited data

Results flagged for a closer look

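For 2 of the genes named, the PtchLacZ/+ tumour read just below the single cerebellum and both SmoM2 tumours read above it. Hes1, a repressor of proneural genes, lay -0.06 from the cerebellum in the PtchLacZ/+ tumour and 0.87 and 0.76 from it in the 2-month and 1-month SmoM2 tumours. The difference between the models was -0.88 ± 0.26 (limma adjusted p = 0.9998). Fezf2, a forebrain factor, lay -0.03 from the cerebellum in the PtchLacZ/+ tumour and 0.22 and 0.14 from it in the SmoM2 tumours, with a difference between the models of -0.21 ± 0.25 (limma adjusted p = 0.9998). Neither difference passed after adjustment, and the PtchLacZ/+ values are too close to the cerebellum to show a change in the opposite direction.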

How the results depend on the processing

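Atoh1, Olig3 and Nhlh1 were called higher in all 9 settings of tumour against cerebellum, with differences of 6.76 to 7.06, 5.19 to 5.66 and 5.62 to 5.99. Neurod6 was called in all 8 settings that tested it (2.36 to 3.07). Neurod2 was called in 7 of 9 (-1.11 to -0.98), and Nhlh2 (1.10 to 1.74) and Neurod1 (-1.55 to -0.87) in 1 of 9. Neurog1, at 0.10, ranged from -0.07, without the 2-month SmoM2 tumour, to 0.22 when a tumour was left out. For the 2-month minus 1-month difference, Neurog2 was at 0.38, and at 0.62 after quantile normalization. The count of all genes called in tumour against cerebellum was 3191 and ranged from 1565 to 6010 when a tumour was left out, and the count among the 9 genes ranged from 4 to 7. In PtchLacZ/+ against SmoM2, 0 genes were called, against 14 after quantile normalization, 4 among genes above the median level and 1 with a trended prior variance. The causes were not tested. With a SmoM2 tumour left out this comparison has no test. No paired analysis was possible because each array differs from the others in genotype or age. The labels give no replicate numbers, and those assigned by accession order pair no samples. With 1 cerebellum, its own spread is unknown.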
